A study of Mus musculus with 12 samples.

Results

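The 27 genes described here encode the enzymes that make mevalonate, prenyl lipids and sterols, the proteins that control those enzymes through the transcription factor SREBP2, and a soluble sterol carrier. They were taken by symbol from the deposited count table, where they are 27 of 55586 genes. All 27 passed the filter on low counts, which left 13474 genes for testing. By role they split into 7 genes of mevalonate synthesis and its supply, 4 of the prenyl branch, 11 of the steps between farnesyl diphosphate and cholesterol, 4 of SREBP2 control, and the carrier Stard4.

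Cells build cholesterol from acetyl-CoA by way of mevalonate, and the same route supplies the prenyl groups that anchor small GTPases and the dolichol used in protein glycosylation. SREBP2 is made as a membrane protein of the endoplasmic reticulum. When sterols there are low, SCAP escorts it to the Golgi, where it is cut, and the freed fragment enters the nucleus and switches on most genes of the route. INSIG proteins hold SCAP in place when sterols are high. Macrophages also take in cholesterol with the cells and lipoproteins they engulf, so synthesis, uptake and efflux are closely linked in these cells.

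RNA was sequenced from mouse peritoneal macrophages, the phagocytes of the abdominal cavity, cultured with fetal bovine serum in 4 groups of 3 libraries. The groups were Remodelin hydrobromide, untreated control, Remodelin hydrobromide followed by interferon gamma (IFNy in the labels, IFN-γ here), and IFN-γ alone. Remodelin inhibits NAT10, the acetyltransferase that writes N4-acetylcytidine in RNA. Strain, age, dose and time of treatment were not given in the sources used here. Whether libraries of 1 group stem from separate animals or cultures was not stated either, so p-values measure only the spread between libraries.

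Libraries held 15917454 to 19418665 counts. The macrophage markers Adgre1 and Csf1r were high, at 148 to 200 CPM (read count scaled to library size, with TMM factors) and 103 to 215 CPM. Of the other macrophage markers read, Gata6 was at 9.54 to 19.5 CPM and Icam2 at 3.93 to 6.90 CPM. Timd4, a marker of long-resident peritoneal macrophages, was at 0 to 0.116 CPM. The libraries labelled IFN-γ held little of an IFN-γ response: the chemokine Cxcl9, a classical target, was at 0 to 0.114 CPM in all 12 libraries. The guanylate-binding protein Gbp2 averaged 8.41 ± 0.395 CPM in IFN-γ libraries and 6.82 ± 0.652 CPM in control libraries, and the transcription factor Irf1 averaged 22.1 ± 4.09 CPM in IFN-γ libraries and 20.3 ± 1.96 CPM in control libraries (SD, n = 3 each). Gbp2 stood further apart where Remodelin was present, at 11.9, 10.4 and 11.1 CPM in Remodelin with IFN-γ libraries, against 6.09, 6.34 and 6.59 CPM in Remodelin libraries, a log2 fold change of 0.81 ± 0.17 that was not called (adjusted p = 0.636, edgeR). Of the 6 IFN-γ response genes tested, 6 had fold changes above 0 in that comparison (median 0.39) and 3 in IFN-γ against control (median 0.02), and none was called in either. Results that rest on the IFN-γ label carry that limit. Nat10 itself averaged 17.7 ± 4.28 CPM in Remodelin libraries and 18.1 ± 1.97 CPM in control libraries, with a log2 fold change of -0.03 ± 0.21 (SE). Remodelin with IFN-γ 1 stood apart, at 53.2 on the first principal component against -34.3 to 26.1 for the other 11 libraries, and its deviation from the mean library followed transcript GC content with a Spearman correlation of -0.69 across genes. For control 2 and control 3 that correlation was 0.534 and 0.55. Other libraries lay apart from their groups on the second principal component. Control 1 was at 29.2 there, against -2.58 and -8.84 for control 2 and control 3. Remodelin 1 was at -23.8, against 26.9 and 21.8 for Remodelin 2 and Remodelin 3. Control 1 and Remodelin 1 are left out together in a fit given below.

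The sterol pathway genes were lower in Remodelin libraries at both levels of IFN-γ. Their summed level was 1043, 1054 and 1021 CPM in the 3 Remodelin libraries, against 1382, 1447 and 1404 CPM in the 3 control libraries. With IFN-γ present it was 1155, 1082 and 1065 CPM in the Remodelin with IFN-γ libraries, against 1436, 1399 and 1408 CPM in the IFN-γ libraries. Every Remodelin library, with or without IFN-γ, lay below every library without Remodelin. Set against the control mean of each gene, the median member stood at 66.3% to 71.5% in Remodelin libraries, 69.2% to 71.7% in Remodelin with IFN-γ libraries and 99.7% to 102% in IFN-γ libraries. In bulk RNA a smaller share of cells that express a gene and less of its RNA per cell cannot be told apart.

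**Figure D1:**
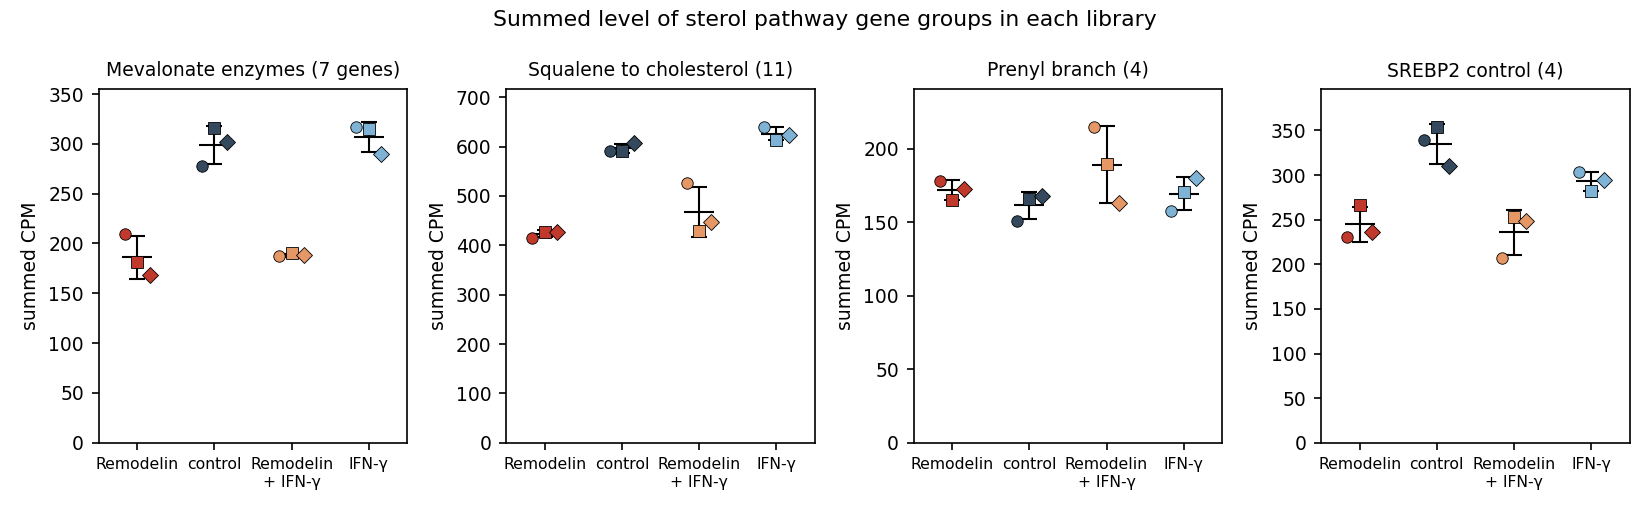
Summed CPM of the 7 mevalonate genes, the 11 genes from squalene synthesis to cholesterol, the 4 prenyl branch genes and the 4 SREBP2 control genes in each library. Circles, squares and diamonds are replicates 1, 2 and 3, and bars are the mean ± SD of 3 libraries. The mevalonate sum averages 186 CPM in Remodelin libraries and 299 CPM in control libraries, while the prenyl branch sum averages 172 CPM in Remodelin libraries and 162 CPM in control libraries.

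Differences in counts were tested by edgeR's quasi-likelihood method, and a gene is called where its p, adjusted by the Benjamini-Hochberg method over all 13474 genes, is under 0.05. In Remodelin against control, 6 of the 27 members were called, all lower, in a comparison where 0.653% of all tested genes were called lower and 0.846% were called in either direction. They were Acat2, Mvd, Lss, Cyp51, Insig1 and Aacs. In Remodelin with IFN-γ against IFN-γ alone, 1 member was called, Mvd, also lower, where 0.223% of all tested genes were called lower and 0.364% in either direction. That count depended on the processing: it was 9 with DESeq2, 5 with the GC trend of each library removed, and 11 without both control 1 and Remodelin 1, and the authors' deposited table gave 12. With 1 library left out it was 0 without IFN-γ 1, IFN-γ 2 or Remodelin with IFN-γ 3, 3 without control 1, 4 without Remodelin 1 and 1 in the other 7 fits. The shares above belong to the main fit. Shares of all genes called under these other settings are not given here, so these counts cannot be set against them. The median log2 fold change of the members was -0.54 in Remodelin against control and -0.47 in Remodelin with IFN-γ against IFN-γ, beside 0.01 and 0.03 for all tested genes. In 17 members every Remodelin library lay below every control library, which held for 10.3% of all tested genes, and in 18 members every Remodelin with IFN-γ library lay below every IFN-γ library, which held for 15.6%.

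The average of both Remodelin comparisons, which uses all 12 libraries, called 16 of 27 members lower and none higher, beside 4.8% and 2.24% of all tested genes, or 7.04% in either direction. The 16 were 5 of the 7 mevalonate genes, Fdps of the prenyl branch, 8 of the 11 genes between farnesyl diphosphate and cholesterol, and Srebf2 and Insig1 of the control genes. The median log2 fold change of all 27 was -0.49, beside 0.03 for all tested genes. Acat2, Mvk, Mvd, Aacs, Fdps, Fdft1, Sqle, Lss, Cyp51 and Insig1, 10 of the 16, were called in each of the 12 fits that left out 1 library. The other 6 lost the call in at least 1 of these fits and are taken up below. Without Remodelin with IFN-γ 1, which stood apart, 15 were called, and with the GC trend of each library removed 19 were called. Shares of all genes called in these altered fits are not given here, and those above belong to the main fit.

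**Figure D2:**
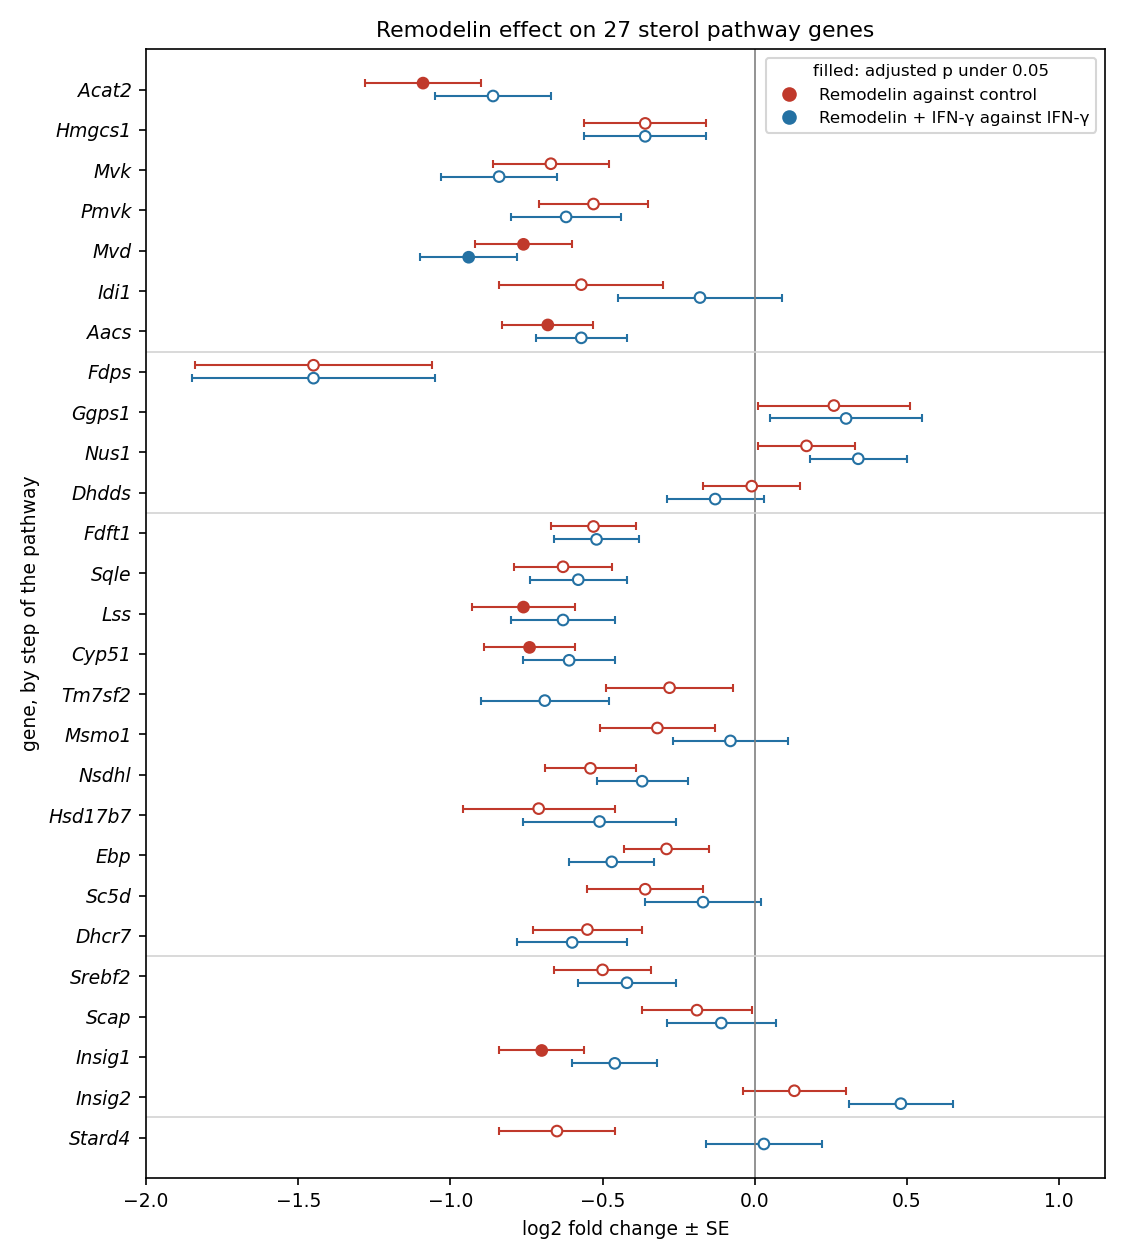
Log2 fold change with its SE for each of the 27 genes, ordered by step of the pathway, in Remodelin against control (red) and in Remodelin with IFN-γ against IFN-γ (blue), where filled points have an adjusted p under 0.05. Points lie left of 0 for 24 and 23 of 27 genes in these comparisons, and Nus1, Ggps1 and Insig2 lie right of 0 in both.

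As most members were lower together, the DNA just before the gene starts was read from RefSeq promoters on the GRCm38.p6 build. These span 250 bases before to 50 bases after each start. They were found for 23 of the 27 genes, in 29 promoters. Mvk, Mvd, Lss and Cyp51 were called lower in the average Remodelin effect. Hmgcs1 was not called there but holds the one match to the element core. Promoters of these mevalonate and sterol enzymes are shown. They are read on the strand of the gene, with capitals for a match to TCACNCCAC, a core of the sterol regulatory element bound by SREBP proteins, or to CCAAT, the box bound by NF-Y, a common partner of SREBP proteins, on either strand (ATTGG is CCAAT read on the other strand). Hmgcs1 is at chr13:119690101-119690400 on the plus strand, Mvk at chr5:114444019-114444318 on the plus strand, Mvd at chr8:122443373-122443672 on the minus strand, Lss at chr10:76531355-76531654 on the plus strand and Cyp51 at chr5:4104648-4104947 on the minus strand.
Hmgcs1: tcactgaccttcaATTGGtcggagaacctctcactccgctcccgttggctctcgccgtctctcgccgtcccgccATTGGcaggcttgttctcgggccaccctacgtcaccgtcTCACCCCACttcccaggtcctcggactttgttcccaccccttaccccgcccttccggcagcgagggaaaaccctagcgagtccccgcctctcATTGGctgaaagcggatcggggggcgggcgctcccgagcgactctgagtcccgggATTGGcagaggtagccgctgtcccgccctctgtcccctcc
Mvk: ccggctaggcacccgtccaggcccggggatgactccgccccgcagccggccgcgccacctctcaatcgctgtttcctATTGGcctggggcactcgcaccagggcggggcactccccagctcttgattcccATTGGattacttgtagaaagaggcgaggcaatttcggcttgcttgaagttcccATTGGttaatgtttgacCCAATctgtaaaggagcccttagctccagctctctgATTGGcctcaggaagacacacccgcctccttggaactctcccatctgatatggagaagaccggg
Mvd: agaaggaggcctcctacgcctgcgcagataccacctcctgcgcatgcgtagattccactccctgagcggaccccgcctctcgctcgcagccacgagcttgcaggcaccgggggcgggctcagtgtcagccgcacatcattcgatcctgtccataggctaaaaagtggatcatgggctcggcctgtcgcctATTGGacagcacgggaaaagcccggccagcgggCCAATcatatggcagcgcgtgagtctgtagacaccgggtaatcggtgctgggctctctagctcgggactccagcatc
Lss: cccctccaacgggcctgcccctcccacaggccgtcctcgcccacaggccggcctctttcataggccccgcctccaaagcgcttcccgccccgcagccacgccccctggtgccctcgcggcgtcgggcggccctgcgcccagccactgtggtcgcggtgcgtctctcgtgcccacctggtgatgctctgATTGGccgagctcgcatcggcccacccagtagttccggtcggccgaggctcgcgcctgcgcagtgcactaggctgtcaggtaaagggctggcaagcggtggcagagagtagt
Cyp51: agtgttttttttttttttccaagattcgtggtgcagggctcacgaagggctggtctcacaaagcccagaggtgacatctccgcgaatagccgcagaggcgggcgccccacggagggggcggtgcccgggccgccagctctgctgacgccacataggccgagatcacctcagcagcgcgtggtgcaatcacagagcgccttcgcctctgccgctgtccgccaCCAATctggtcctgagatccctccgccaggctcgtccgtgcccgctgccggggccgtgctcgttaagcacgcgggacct
The Hmgcs1 promoter held the TCACNCCAC core at position -137 from the start and 4 CCAAT boxes, the Mvk promoter held 5 CCAAT boxes, the Mvd promoter held 2, and the Lss and Cyp51 promoters held 1 each. Across members, CCAAT was found in 20 of 23 genes (87.0%), and in 41.1% of all 27025 genes with a promoter and 43.0% of the 9920 tested genes with one. The member genes with CCAAT included Nus1, Ggps1, Dhdds and Insig2, which were not called lower. Those without it were Acat2 and Aacs, which were called lower, and Scap, which was not. The GC box GGGCGG was found in 20 of 23 member genes (87.0%), and in 38.2% of all genes and 69.2% of tested genes. TCACNCCAC was found in 1 of 23 member genes (4.35%) and 1.44% of all genes, and its inner part CACNCCA, which every TCACNCCAC match also contains, in 6 of 23 (26.1%) and 20.6% of all genes. These are matches of letters within short windows and were not tested.

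Among the genes that make mevalonate and convert it to isopentenyl diphosphate, the building block of all later products, 5 of 7 fell in the average Remodelin effect and none rose. Their summed level was 210, 181 and 168 CPM in Remodelin libraries, against 278, 316 and 302 CPM in control libraries. It was 187, 190 and 188 CPM in Remodelin with IFN-γ libraries, against 317, 315 and 290 CPM in IFN-γ libraries. The groups did not overlap in either comparison.

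Acat2, the cytosolic thiolase that joins acetyl-CoA units into acetoacetyl-CoA, was at 20.1, 13.1 and 12.9 CPM in Remodelin libraries, against 25.1, 36.7 and 36.5 CPM in control libraries. With IFN-γ it was at 17.5, 17.1 and 16.7 CPM in Remodelin with IFN-γ libraries, against 33.4, 30.7 and 29.1 CPM in IFN-γ libraries. Every library with Remodelin lay below every library without it. Remodelin 1 was the highest of the Remodelin libraries and control 1 the lowest of the control libraries. The log2 fold change was -1.09 ± 0.19 in Remodelin against control (adjusted p = 0.0121, edgeR quasi-likelihood) and -0.86 ± 0.19 with IFN-γ (adjusted p = 0.0623, not called).

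Mvd, the decarboxylase that yields isopentenyl diphosphate, had the highest length-scaled level of the 27 in control libraries, at 49.1 ± 5.41 FPKM as deposited by the authors. It was at 66.0, 52.1 and 45.4 CPM in Remodelin libraries, against 81.2, 99.0 and 96.2 CPM in control libraries, and at 44.6, 54.2 and 50.1 CPM in Remodelin with IFN-γ libraries, against 102, 99.6 and 83.8 CPM in IFN-γ libraries. All 6 libraries with Remodelin were below all 6 without it. It was the member called in both comparisons, at -0.76 ± 0.16 on the log2 scale in Remodelin against control (adjusted p = 0.0328) and -0.94 ± 0.16 in Remodelin with IFN-γ against IFN-γ (adjusted p = 0.0148, edgeR). The second call did not hold without IFN-γ 1, IFN-γ 2, Remodelin with IFN-γ 1 or Remodelin with IFN-γ 3, with adjusted p of 0.124, 0.0981, 0.0691 and 0.0783 in that order and log2 fold changes of -0.94 to -0.84.

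Aacs, which activates acetoacetate, a ketone body, for use in sterol and fatty acid synthesis, was at 25.9, 29.0 and 25.1 CPM in Remodelin libraries, against 41.9, 48.3 and 37.6 CPM in control libraries. Where IFN-γ was added, it was at 23.7, 26.4 and 29.9 CPM in Remodelin with IFN-γ libraries, against 40.1, 37.9 and 40.6 CPM in IFN-γ libraries. The groups did not overlap. Its log2 fold change was -0.68 ± 0.15 in Remodelin against control (adjusted p = 0.0446, edgeR) and -0.57 ± 0.15 with IFN-γ (adjusted p = 0.112). Of the 6 calls in Remodelin against control, none held in all 12 fits that left out 1 library: Acat2 was called in 8, Cyp51 in 5, Mvd and Insig1 in 4 each, and Aacs and Lss in 1 each. No member was called in that comparison without control 2, control 3, Remodelin 2 or Remodelin 3. The count was 1 without IFN-γ 1, 2 without control 1, IFN-γ 2 or IFN-γ 3 and 3 without Remodelin with IFN-γ 3, while the median of the members stayed between -0.59 and -0.5.

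Mvk, mevalonate kinase, averaged 37.3 ± 8.11 CPM in Remodelin libraries and 59.5 ± 11.3 CPM in control libraries, and 31.9 ± 2.51 CPM in Remodelin with IFN-γ libraries and 57.1 ± 9.45 CPM in IFN-γ libraries (SD, n = 3 each). Remodelin 1, at 46.6 CPM, lay just above control 1, at 46.5 CPM, so that the groups overlapped without IFN-γ and did not overlap with it. Its average Remodelin effect was -0.76 ± 0.13 on the log2 scale (adjusted p = 0.00332, edgeR). Pmvk, the next kinase, had an average effect of -0.57 ± 0.13 (adjusted p = 0.0156), a call that was lost without IFN-γ 1 (adjusted p = 0.0511) and after GC trend removal (-0.40 ± 0.12, adjusted p = 0.0625). Hmgcs1, the synthase that makes the substrate of the rate-limiting reductase, and the isomerase Idi1 were not called, at -0.36 ± 0.14 and -0.38 ± 0.19. Idi1 was at 12.6 CPM in Remodelin with IFN-γ 1 and at 6.21 and 5.53 CPM in the other 2 libraries of that group, and without that library its average effect was -0.58 ± 0.14 (adjusted p = 0.0313). Idi1 has processed pseudogenes, of which Idi1-ps1 was counted with 49 reads over all libraries beside 1625 for Idi1, so reads shared with them are uncertain.

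**Figure D3:**
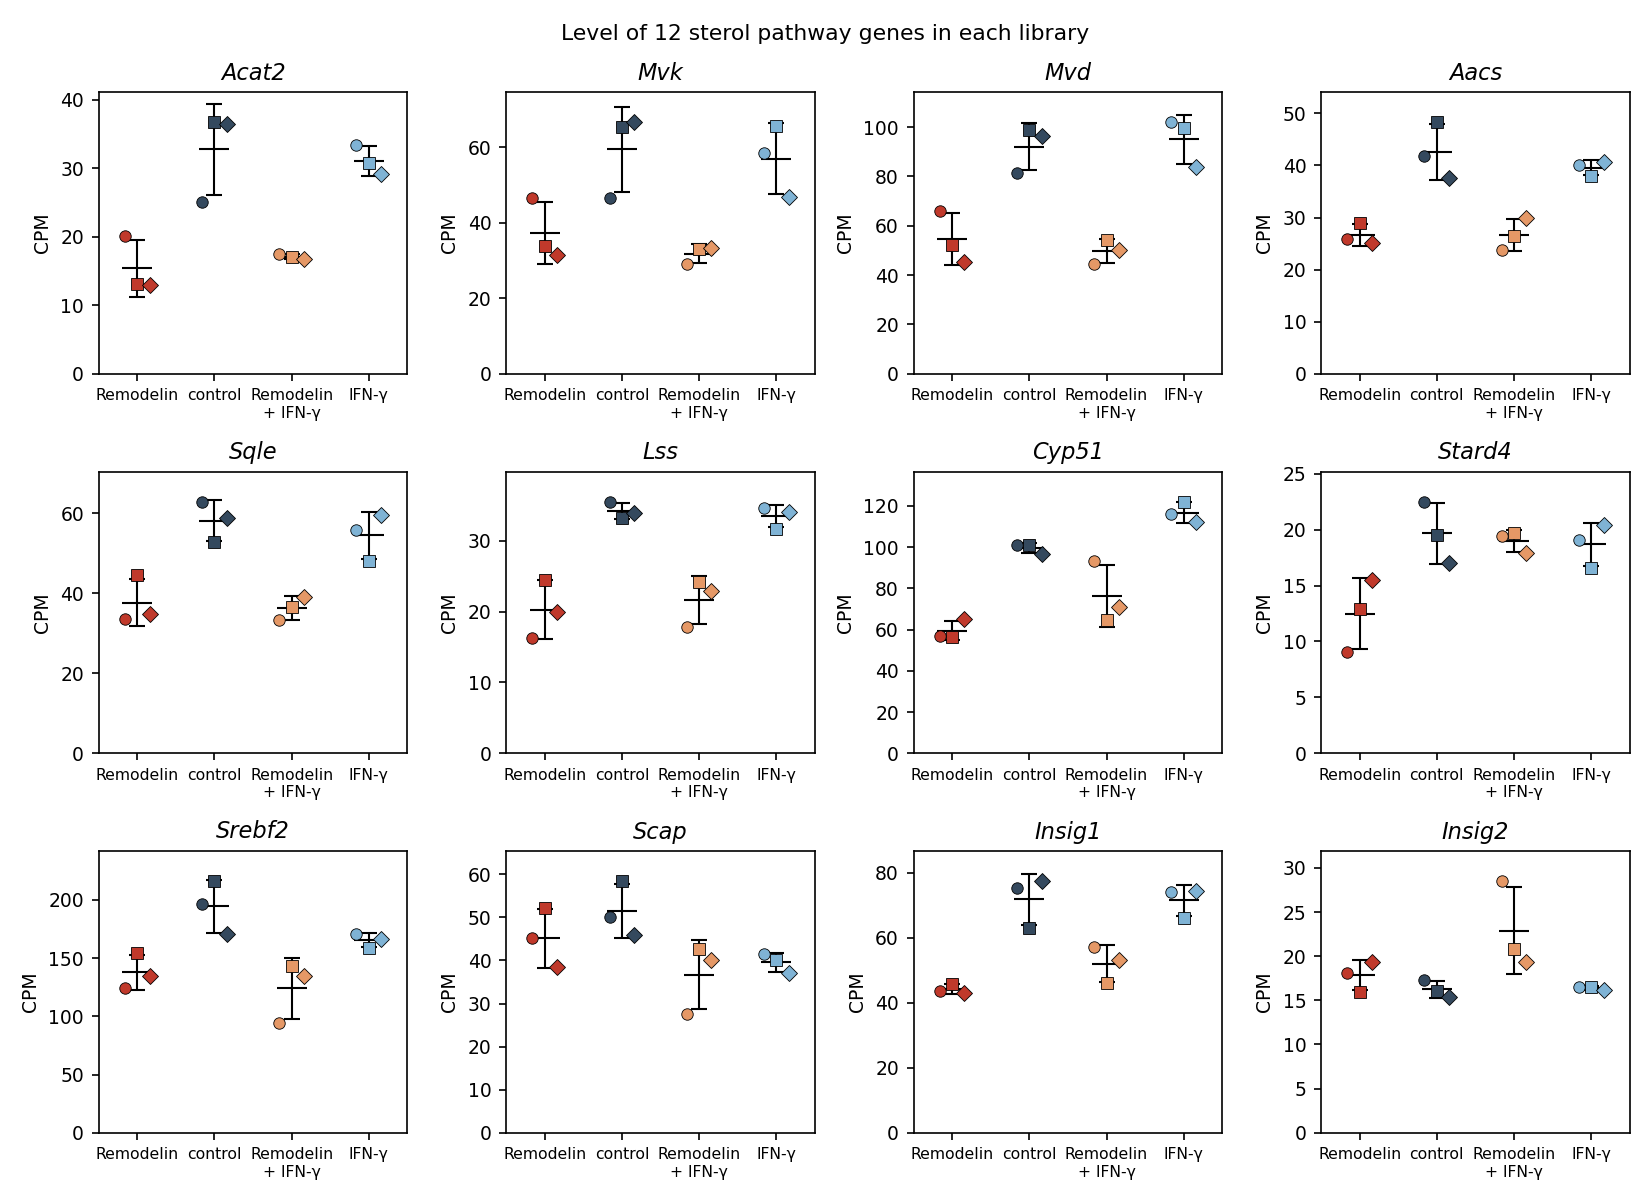
CPM of 12 sterol pathway genes in each library, with circles, squares and diamonds for replicates 1, 2 and 3 and bars for the mean ± SD of 3 libraries. Acat2, Mvd, Aacs, Lss, Cyp51 and Insig1 are lower in all 3 Remodelin libraries than in all 3 control libraries, while Scap and Insig2 overlap between those groups.

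In the branch that makes prenyl diphosphates and dolichol, 1 of 4 genes fell in the average Remodelin effect. Fdps, farnesyl diphosphate synthase, which stands before the split between sterols and prenyl lipids, had the fewest reads of all members, 17, 8 and 15 in Remodelin libraries, against 42, 37 and 45 in control libraries. With IFN-γ it had 5, 13 and 19 reads in Remodelin with IFN-γ libraries, against 37, 28 and 37 in IFN-γ libraries. The groups did not overlap, and the average effect was -1.45 ± 0.28 on the log2 scale (adjusted p = 0.00641, edgeR). With a filter of 50 reads in 3 libraries the gene was not tested. Fdps overlaps Gm43738, a protein-coding gene on the same strand. Gm43738 had 0 reads over all libraries beside 303 for Fdps, so the counts of Fdps are uncertain.

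The other 3 prenyl genes were not called in any comparison. Nus1 and Dhdds, the subunits of the enzyme that builds the dolichol chain, and Ggps1, which makes geranylgeranyl diphosphate for protein prenylation, had average effects of 0.25 ± 0.12, -0.07 ± 0.11 and 0.28 ± 0.17 on the log2 scale. Nus1 was at 90.1, 94.7 and 105 CPM in Remodelin libraries, against 86.4, 86.0 and 85.8 CPM in control libraries, the single member with groups apart in the upward direction there, which held for 6.09% of all tested genes. With IFN-γ it overlapped, at 151, 111 and 96.2 CPM in Remodelin with IFN-γ libraries, against 80.5, 96.5 and 106 CPM in IFN-γ libraries. Nus1 and Ggps1 have AT-rich transcripts, with 42.3% and 40.1% GC, and after removal of the GC trend of each library their average effects were 0.02 ± 0.08 and 0.04 ± 0.14. Ggps1 overlaps Arid4b on the opposite strand, and since no strand setting of the counting was given in the sources used here, reads of these genes cannot be told apart where they overlap.

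From squalene to cholesterol, 8 of 11 genes fell in the average Remodelin effect and the log2 fold changes of all 11 were below 0 in each of the Remodelin comparisons. Their summed level was 415, 428 and 428 CPM in Remodelin libraries, against 592, 591 and 607 CPM in control libraries. It was 526, 430 and 448 CPM in Remodelin with IFN-γ libraries, against 640, 614 and 624 CPM in IFN-γ libraries. The groups did not overlap, and Remodelin with IFN-γ 1 was the highest library of its group.

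Cyp51, the demethylase that removes the first methyl group of lanosterol, was at 56.9, 56.6 and 65.1 CPM in Remodelin libraries, against 101, 101 and 96.6 CPM in control libraries. In the IFN-γ arm it was at 93.4, 64.8 and 70.9 CPM in Remodelin with IFN-γ libraries, against 116, 122 and 112 CPM in IFN-γ libraries. The groups did not overlap, and Remodelin with IFN-γ 1 again lay closest to the libraries without Remodelin. The log2 fold change was -0.74 ± 0.15 in Remodelin against control (adjusted p = 0.0236, edgeR) and -0.61 ± 0.15 with IFN-γ (adjusted p = 0.0852), where it was -0.76 ± 0.13 without Remodelin with IFN-γ 1 (adjusted p = 0.0207). Akap9, which overlaps it on the opposite strand, had 1368 reads over all libraries beside 18738 for Cyp51.

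Lss, which closes the ring system of lanosterol, was at 16.2, 24.5 and 20.0 CPM in Remodelin libraries, against 35.5, 33.2 and 33.9 CPM in control libraries. In the presence of IFN-γ it was at 17.8, 24.2 and 22.9 CPM in Remodelin with IFN-γ libraries, against 34.6, 31.7 and 34.1 CPM in IFN-γ libraries. The groups stood well apart, and replicate 2 was the highest of both groups with Remodelin. Its log2 fold change was -0.76 ± 0.17 in Remodelin against control (adjusted p = 0.0458, edgeR) and -0.63 ± 0.17 with IFN-γ (adjusted p = 0.117).

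Squalene synthase Fdft1 and squalene epoxidase Sqle, the entry steps of the sterol branch, had average Remodelin effects of -0.53 ± 0.10 and -0.61 ± 0.11 on the log2 scale (adjusted p = 0.00498 and 0.00409, edgeR). Sqle averaged 37.7 ± 5.97 CPM in Remodelin libraries and 58.1 ± 5.14 CPM in control libraries, and 36.3 ± 2.91 CPM in Remodelin with IFN-γ libraries and 54.5 ± 5.94 CPM in IFN-γ libraries (SD, n = 3 each). Fdft1 lies on the opposite strand of Ctsb, a cathepsin with 2590293 reads over all libraries beside 12187 for Fdft1. Ctsb had an average effect of -0.34 ± 0.12 (adjusted p = 0.0899), and how many of its reads were counted for Fdft1 was not tested.

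Of the later enzymes, Dhcr7, the reductase that yields cholesterol itself, and Nsdhl and Hsd17b7, which act in the removal of methyl groups from the ring, fell by 0.57 ± 0.13, 0.46 ± 0.11 and 0.61 ± 0.18 on the log2 scale in the average effect, and the isomerase Ebp fell by 0.38 ± 0.10 (adjusted p = 0.0146, 0.0198, 0.0475 and 0.0288, edgeR). These calls depended on single libraries. Dhcr7 lost its call without control 2 or IFN-γ 1 (adjusted p = 0.0534 and 0.0552). Nsdhl lost it without control 2, IFN-γ 1, Remodelin 3 or Remodelin with IFN-γ 3 (0.0502 to 0.0734), and Ebp was called in 3 of the 12 fits, those without control 1, Remodelin 1 or Remodelin with IFN-γ 2. Hsd17b7, with 3.59, 6.34 and 6.53 CPM in Remodelin libraries, against 12.2, 7.82 and 6.90 CPM in control libraries, was called only in the fit without control 3.

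Tm7sf2, a sterol reductase, Msmo1, a methylsterol oxidase, and Sc5d, the desaturase that acts late in the route, were not called, with average effects of -0.49 ± 0.15, -0.20 ± 0.14 and -0.27 ± 0.13 (adjusted p = 0.0544, 0.351 and 0.205). For Msmo1 and Sc5d, Remodelin with IFN-γ 1 went against the other libraries. Msmo1 was at 154 CPM there and at 86.3 and 90.8 CPM in the other 2 libraries of the group, against 121, 109 and 119 CPM in IFN-γ libraries. Sc5d was at 66.5 CPM there and at 39.6 and 43.2 CPM in the other 2, against 55.8, 52.6 and 59.8 CPM in IFN-γ libraries. Without that library the average effects of Msmo1 and Sc5d were -0.33 ± 0.10 and -0.37 ± 0.10 (adjusted p = 0.0723 and 0.05, not called). Tm7sf2 shares its strand and part of its locus with Vps51, which had 9236 reads beside 3791 for Tm7sf2, so its counts are uncertain.

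Among the 4 control genes, Srebf2 and Insig1, both known SREBP2 targets as well as parts of its control, fell in the average Remodelin effect, while Scap and Insig2 were not called. Insig1 was at 43.6, 45.9 and 42.9 CPM in Remodelin libraries, against 75.2, 62.9 and 77.4 CPM in control libraries. After IFN-γ it was at 57.0, 46.0 and 53.2 CPM in Remodelin with IFN-γ libraries, against 74.1, 66.1 and 74.4 CPM in IFN-γ libraries. The groups were apart in both comparisons. Its log2 fold change was -0.70 ± 0.14 in Remodelin against control (adjusted p = 0.0252, edgeR) and -0.46 ± 0.14 with IFN-γ (adjusted p = 0.156).

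Insig2, which does the same work as Insig1 and is not known as a strong SREBP2 target, was at 18.1, 16.0 and 19.4 CPM in Remodelin libraries, against 17.3, 16.1 and 15.4 CPM in control libraries. With IFN-γ it was at 28.5, 20.8 and 19.3 CPM in Remodelin with IFN-γ libraries, against 16.5, 16.5 and 16.2 CPM in IFN-γ libraries, with every Remodelin with IFN-γ library above every IFN-γ library. That held in the upward direction for 12.2% of all tested genes, and Insig2 was the only member among them. Its log2 fold change was 0.13 ± 0.17 in Remodelin against control (adjusted p = 0.749) and 0.48 ± 0.17 with IFN-γ (adjusted p = 0.198), so it was not called. Its longest transcript has 46.0% GC. The fold change with IFN-γ was 0.29 ± 0.13 with the GC trend removed and 0.31 ± 0.15 without Remodelin with IFN-γ 1.

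Srebf2, the gene of SREBP2 itself, was at 124, 154 and 135 CPM in Remodelin libraries, against 196, 216 and 171 CPM in control libraries. Where IFN-γ was added, it was at 94.1, 143 and 135 CPM in Remodelin with IFN-γ libraries, against 171, 159 and 166 CPM in IFN-γ libraries. The groups did not overlap, and the average effect was -0.46 ± 0.12 on the log2 scale (adjusted p = 0.0266, edgeR). The call did not hold without control 2, any 1 of the 3 IFN-γ libraries, or Remodelin 3 (adjusted p = 0.0573 to 0.088), and after GC trend removal (-0.28 ± 0.09, adjusted p = 0.0758).

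Scap, the escort of SREBP2, was at 45.1, 52.1 and 38.4 CPM in Remodelin libraries, against 50.1, 58.4 and 45.9 CPM in control libraries. In the IFN-γ arm it was at 27.5, 42.6 and 40.1 CPM in Remodelin with IFN-γ libraries, against 41.4, 40.2 and 37.0 CPM in IFN-γ libraries. The groups overlapped in both comparisons, and the average effect was -0.15 ± 0.13, or 0.05 ± 0.09 with the GC trend removed. Scap has the highest GC content of the members, at 59.1%.

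Stard4, which carries cholesterol between membranes and is a known SREBP2 target, was at 9.1, 12.9 and 15.5 CPM in Remodelin libraries, against 22.5, 19.5 and 17.0 CPM in control libraries. After IFN-γ it was at 19.4, 19.7 and 17.9 CPM in Remodelin with IFN-γ libraries, against 19.1, 16.6 and 20.4 CPM in IFN-γ libraries. The groups were apart without IFN-γ and overlapped with it, and the log2 fold changes were -0.65 ± 0.19 and 0.03 ± 0.19. The difference between them, the interaction, was 0.68 ± 0.27 (adjusted p = 1.0, edgeR). Stard4 was the one member with an unadjusted p under 0.05 in that test.

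No member was called in the interaction, in which 0.00742% of all tested genes were called, and DESeq2 and limma-voom called none either. The interaction estimates of the members ran from -0.41 for Tm7sf2 to 0.68 for Stard4 with SE of 0.20 to 0.42. These SE are approximate, least certain for estimates near 0 such as that of Fdps, which has the SE of 0.42. Differences of moderate size between the Remodelin effects with and without IFN-γ are therefore not resolved. In IFN-γ against control no member was called by edgeR, DESeq2 or limma-voom, where 0.0148% of all tested genes were called by edgeR, and 1 member, Scap, had an unadjusted p under 0.05 (-0.38 ± 0.18). In Remodelin with IFN-γ against Remodelin no member was called by these tools, where edgeR called 0.0% of all tested genes, and 4 members had an unadjusted p under 0.05. The medians of the members in these IFN-γ comparisons were -0.01 and 0.10, beside 0.00 and -0.01 for all tested genes. In IFN-γ against control, Cyp51 and Sc5d had every IFN-γ library above every control library and Scap and Srebf2 had every one below, where 9.18% and 8.51% of all tested genes did so. In Remodelin with IFN-γ against Remodelin, Hmgcs1, Sc5d, Insig1 and Stard4 lay apart upwards and Ebp downwards, beside 5.99% and 3.49% of all tested genes. Comparisons that share control, IFN-γ or Remodelin libraries are not independent of each other.

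The fold changes of the members were also read against the GC content of their longest transcript, since libraries differed in their GC trend. Across the 27 members the Spearman correlation of fold change with GC content was -0.408 in the average Remodelin effect and -0.793 in Remodelin with IFN-γ against Remodelin, beside -0.501 and -0.508 over 13339 genes. It was -0.169 in Remodelin against control and -0.528 in Remodelin with IFN-γ against IFN-γ, beside -0.426 and -0.468. In IFN-γ against control and the interaction it was -0.641 and -0.61, beside -0.467 and -0.0925. These points share libraries and are a description. In the average effect, the 14 members at or above the median GC content had a median log2 fold change of -0.57, with 14 of 14 below 0, and the 13 members under it had a median of -0.36, with 10 of 13 below 0. The medians of the same sets were -0.54 and -0.54 in Remodelin against control. In Remodelin with IFN-γ against IFN-γ they were -0.61 and -0.18. With the GC trend of each library removed, Hmgcs1, Idi1, Msmo1, Sc5d and Stard4 were called lower as well, Srebf2 and Pmvk lost their call, and the median over the 27 was -0.50.

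**Figure D4:**
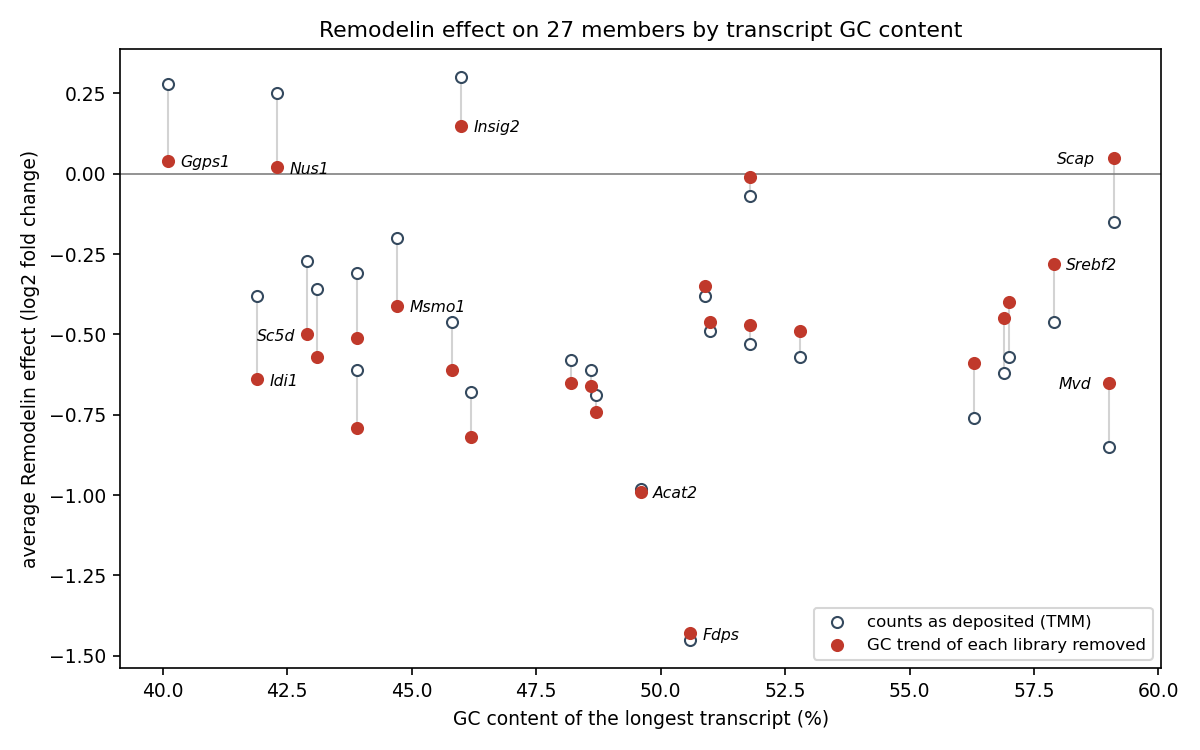
Average Remodelin effect (log2 fold change) of the 27 genes against the GC content of their longest transcript in percent, from the counts as deposited with TMM scaling (open points) and after removal of the GC trend of each library (red points), with a line joining both values of a gene. Low-GC genes such as Idi1 and Sc5d move down, at -0.64 and -0.50 after removal, high-GC genes such as Mvd and Scap move up, to -0.65 and 0.05, and most points stay below 0.

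By length-scaled level the members ranged from 49.1 FPKM for Mvd to 0.517 FPKM for Fdps in control libraries, in the values the authors deposited. The level of Fdps carries the limit of its overlap with Gm43738. Ebp (33.1 ± 4.21 FPKM), Srebf2 (26.8 ± 3.02), Insig1 (23.0 ± 2.53), Cyp51 (22.3 ± 0.411) and Mvk (22.1 ± 4.35) followed Mvd, and Insig1, Cyp51 and Mvk differed from each other by less than the SD of Insig1. In the authors' deposited table of comparisons, 5 members had an adjusted p under 0.05 in Remodelin against control (Acat2, Mvd, Lss, Cyp51 and Insig1) and 12 in Remodelin with IFN-γ against IFN-γ, all lower. Shares of all genes under that threshold in the deposited comparisons are not given here, so 5 and 12 cannot be set against them. The authors' deposited table gave no member an adjusted p under 0.05 in either IFN-γ comparison.

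Other genes around the pathway were followed as lists, with counts for the average Remodelin effect. In that effect 4.8% of all tested genes were called lower and 2.24% higher, or 7.04% in either direction. Unlike the members, these genes were not followed under other processing, and some of their calls lay close to the threshold of 0.05. Of 13 tested genes that carry, cut or degrade SREBP proteins, 1 fell and 1 rose. Srebf1, the gene of the sister factor SREBP1, fell to 52.8 ± 9.41 CPM in Remodelin libraries, against 77.1 ± 3.68 CPM in control libraries, and averaged 46.2 ± 12.9 CPM in Remodelin with IFN-γ libraries and 59.6 ± 2.84 CPM in IFN-γ libraries, with an average effect of -0.46 ± 0.13 (adjusted p = 0.045, edgeR). Sec23a, a coat protein of the vesicles that leave the endoplasmic reticulum, rose by 0.53 ± 0.15 (adjusted p = 0.0452). Of 12 tested genes of sterol uptake and accessory sterol metabolism 4 fell and none rose, among them Tmem97, a sterol-regulated membrane protein (-0.46 ± 0.13).

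Among 13 tested genes that use prenyl lipids, the Rab prenyltransferase subunit Rabggtb rose by 0.78 ± 0.18 and the dolichol kinase Dolk fell by 0.41 ± 0.12 (adjusted p = 0.0153 and 0.047, edgeR), and 11 were not called. None of 13 tested genes of cholesterol trafficking and storage, 4 of oxysterol synthesis or 5 that encode the liver X receptors or their targets was called, with 3, 1 and 2 at an unadjusted p under 0.05. Ch25h, which makes an oxysterol that blocks SREBP processing, was low, at 0.393 ± 0.119 CPM in Remodelin libraries and 0.978 ± 0.301 CPM in control libraries, with an average effect of -1.17 ± 0.40 (adjusted p = 0.0811, not called). The efflux transporter Abca1, a liver X receptor target, had an average effect of 0.24 ± 0.20. Of 8 fatty acid synthesis genes 2 fell, the desaturase Fads2 by 0.83 ± 0.13 and fatty acid synthase Fasn by 0.65 ± 0.17 (adjusted p = 0.00124 and 0.0327).

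Markers of other cells and of cell division were read too, and some of their sums were lower with Remodelin while others overlapped between groups. In the average effect 4.8% of all tested genes were called lower and 2.24% higher. The 7 neutrophil markers summed to 29.0 to 32.7 CPM in Remodelin libraries, against 47.5 to 55.9 CPM in control libraries, and to 32.0 to 35.2 CPM in Remodelin with IFN-γ libraries, against 47.2 to 52.5 CPM in IFN-γ libraries. The called markers were the proteases Mmp8 and Mmp9, 2 of 4 tested, while Ly6g, which defines neutrophils, was at 0 to 0.0578 CPM in all libraries. The 10 mesothelial and stromal markers summed to 173 to 283 CPM in Remodelin libraries, against 285 to 413 CPM in control libraries. With IFN-γ they summed to 239 to 269 CPM in Remodelin with IFN-γ libraries, against 264 to 300 CPM in IFN-γ libraries. In the average effect 4 of the 10 were called lower and none higher. Their directions were mixed, with average fold changes below 0 for 7 and above 0 for 3. In the single Remodelin comparisons, fold changes were above 0 for 2 of 10 without IFN-γ and 5 of 10 with it. The 15 proliferation genes summed to 424 to 497 CPM in Remodelin libraries, against 485 to 546 CPM in control libraries. With IFN-γ they summed to 477 to 703 CPM in Remodelin with IFN-γ libraries, against 564 to 580 CPM in IFN-γ libraries. In the average effect 7 of the 15 were called lower and none higher, and 1 had a fold change above 0. B cell markers summed to 54.6 to 68.7 CPM in Remodelin libraries, against 59.4 to 67.1 CPM in control libraries, and to 42.1 to 57.3 CPM in Remodelin with IFN-γ libraries, against 53.9 to 62.6 CPM in IFN-γ libraries. T and NK cell markers stayed at or under 0.977 CPM, with Ncr1 at 0 in all libraries. The 5 mast cell markers summed to 1.56 to 3.06 CPM in Remodelin libraries, against 3.69 to 3.96 CPM in control libraries, and to 1.25 to 2.75 CPM in Remodelin with IFN-γ libraries, against 2.92 to 3.74 CPM in IFN-γ libraries. The 6 dendritic cell markers summed to 13.3 to 21.9 CPM in Remodelin libraries, against 17.9 to 22.5 CPM in control libraries, and to 12.7 to 15.9 CPM in Remodelin with IFN-γ libraries, against 18.0 to 20.3 CPM in IFN-γ libraries. Of each of these lists 2 markers were tested and none was called in the average effect, with 1 of each at an unadjusted p under 0.05. Whether these differences have a part in the sterol pathway result was not tested.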

How the data were processed

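Per the file headers, the authors deposited read counts and FPKM values by gene for 12 libraries, with log2 fold changes and p-values from comparisons of their own. Deposited columns named for a whole group within a comparison were not used. The submitters' processing notes list the tools CASAVA 1.8, HISAT2 2.0.5 and featureCounts 1.5.0-p3. Genome build, annotation release and strand setting were not given in the sources used here. The deposited FPKM values were used only to rank levels between genes, and the deposited log2 fold changes and p-values only to count members.

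Counts were tested with edgeR 4.0.16 in R 4.3.3 (quasi-likelihood, TMM, default filter by group, Benjamini-Hochberg adjustment over 13474 genes, threshold 0.05), with all 12 libraries in 1 fit and a mean per group. The common biological coefficient of variation was 18.6%. Library totals were 15917454 to 19418665 counts, and a floor of 3 counts was 0.152 to 0.192 CPM, which covers counting error only. SE follows fold changes and SD follows CPM or FPKM means. For edgeR, SE was taken as the absolute log2 fold change divided by the square root of the F statistic. It is therefore approximate and least certain near a fold change of 0. GC content came from GENCODE M21 transcripts, and its trend was removed with a spline of 5 degrees of freedom per library. Scripts were tested on simulated data.

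Values in every library are given for members called in either single Remodelin comparison and for the 4 control genes, and up to 4 called genes per other list are named. Other members described by library, such as Fdps, Nus1 and Stard4, were chosen after their values were seen. Members, lists, the average Remodelin effect and the naming rule were chosen with earlier results of these data known. Some genes that the rule takes are not reported here.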

Additional observations from a re-analysis of the deposited data

How the results depend on the processing

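The 16 members called in the average Remodelin effect were 14 to 19 under other scalings, filters and tools (17 with DESeq2 1.42.0 and 17 with limma-voom 3.58.1), and 10 to 16 with 1 library left out, the lowest without IFN-γ 1. In Remodelin against control, 6 members were called, and 0 to 8 with 1 library left out. That count was 12 with the GC trend removed, 12 without both control 1 and Remodelin 1, and 0 with the 2 compared groups alone. In Remodelin with IFN-γ against IFN-γ, 1 was called, and 0 to 4 with 1 library left out. That count was 4 with no count filter, 9 with DESeq2, 5 with the GC trend removed, 3 with the 2 compared groups alone and 11 without both control 1 and Remodelin 1. All members called under these alternatives were lower with Remodelin. In the interaction and both IFN-γ comparisons 0 members were called under every alternative run. The average effect of Scap was 0.05 with the GC trend removed and 0.04 with the GC trend removed and a replicate block, and that of Dhdds ran from -0.13 to 0.01 with 1 library left out, the highest without Remodelin with IFN-γ 1. The cause of these changes was not tested.

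Over all tested genes, Remodelin against control called 114 genes, 283 with no count filter, 269 with DESeq2 and 1853 without both control 1 and Remodelin 1.

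Libraries of the same replicate number did not deviate together: correlations of their deviations from the group means ran from -0.547 to 0.261 over 18 pairs, and from -0.318 to 0.415 over 36 pairs of unlike numbers. The lowest, -0.547, was between control 1 and Remodelin 1, which are the libraries left out together above. With a replicate block the count was 1 in Remodelin against control, 1 in Remodelin with IFN-γ against IFN-γ and 14 in the average effect. With the block and the GC trend removed it was 4, 2 and 19 in the same comparisons. Fdps had the fewest reads of the members, 303 in all, and its overlap with Gm43738 leaves its counts uncertain.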
